A study of Mus musculus with 2 samples.

Results

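Periportal spots are the Visium capture spots that lie, by their transcripts, nearest to the portal tracts of the liver lobule. They were selected on a zonation score, the log2 ratio of the summed UMIs of 4 pericentral genes (Cyp2e1, Cyp1a2, Oat and Glul) plus 1 over those of 4 periportal genes (Cyp2f2, Hal, Sds and Gls2) plus 1. Among the spots over tissue with at least 3000 UMIs, the 20% of spots with the lowest score in each section were taken. This gave 421 of 2107 such NCD spots and 707 of 3538 such HFD spots, together 1128 of 5645 spots with at least 3000 UMIs and of 7286 spots over tissue. The remaining 1686 NCD and 2831 HFD spots with at least 3000 UMIs are called the other spots. In the Visium assay, barcoded spots on a slide capture the RNA of the tissue placed on them, and a unique molecular identifier (UMI) makes each captured molecule count 1 time. A spot can hold several cells, so the spots are described here as a region and not as a cell type.

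One liver section of 1 mouse was measured for each diet. The animals were male C57BL/6J mice, bought at 5 weeks of age and kept for 1 week before the diets began. The NCD group ate a normal chow diet, and the HFD group a diet with 60% fat. After 14 weeks of feeding, both groups received distilled water by gavage for 8 weeks. Whether the diet with 60% fat went on during these 8 weeks is not stated. The livers were embedded fresh-frozen, and sections of 10 µm were cut. Nothing but diet distinguishes the groups in the labels, but with 1 animal per diet, diet, animal, section and slide cannot be told apart. The groups could therefore not be tested against each other, and the 95% intervals given cover counting error only. The labels also carry the entries hematopoietic stem cell and immune cell. The periportal spots, however, held the hepatocyte transcript Alb, serum albumin, at 79309.8 CPM (UMIs per 1000000 UMIs of these spots) for NCD and 76317 CPM for HFD.

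Blood enters the liver lobule at the portal tracts, where branches of the portal vein, the hepatic artery and the bile duct run together, and drains through the sinusoids to the central vein. Hepatocytes along this path divide their work. Those near the portal tracts receive oxygen-rich and nutrient-rich blood and are known for urea synthesis, amino acid breakdown, gluconeogenesis and the secretion of plasma proteins, whereas pericentral hepatocytes carry out glutamine synthesis and much of the cytochrome P450 metabolism.

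The sections differed in depth. The NCD periportal spots held 4468681 UMIs with a median of 7557 per spot and a median of 1954 genes, and the HFD periportal spots held 20009526 UMIs with medians of 27552 UMIs and 4417 genes. Depth also ran in opposite directions within the sections, since the other spots had a median of 10614 NCD and 16855 HFD UMIs. Mitochondrially encoded transcripts made up 9.67% of the UMIs of the NCD periportal spots and 5.998% of the HFD ones. Much RNA lay off tissue on the NCD slide, where 19.1% of all UMIs fell on 1300 such spots and tissue spots were the deeper ones in only 51.6% of pairs. For the HFD slide these values were 2.93% of UMIs, 1398 spots and 99.2% of pairs. The score nevertheless spread more widely over tissue than off it on the NCD slide, with 10th and 90th percentiles of −0.13 and 5.58 over tissue against 1.35 and 3.56 off tissue. The sections shared 3173 barcodes over tissue and 81 among the periportal spots, as slides of this kind carry the same barcodes at the same places.

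The score itself is a description of how the spots were chosen. The median score of the chosen spots was −0.13 for NCD and −0.31 for HFD. The last spot inside the limit had a score of 0.76 and the first outside 0.78 for NCD, and 0.632 and 0.633 for HFD. Cyp2f2, a periportal cytochrome P450, stood at 1120.0 CPM in the NCD and 1055 CPM in the HFD periportal spots. Sds, serine dehydratase, stood at 435 and 379.9 CPM, and Hal, histidine ammonia-lyase, at 440.2 and 247 CPM. Zonal genes outside the score followed the label in both sections. Of 20 further periportal genes, 18 reached a mean of 50 CPM over the periportal spots of both sections, and 16 of these 18 had a higher level in the periportal than in the other spots, in each section. Aldh1b1, a mitochondrial aldehyde dehydrogenase, was higher by 1.97 and 1.76 on the log2 scale, and Hsd17b6, a steroid dehydrogenase, by 1.78 and 1.45. All 9 of the 21 further pericentral genes that reached this mean were lower in periportal than in other spots of each section. Of all 1991 genes with this mean, 658 were higher and 1333 lower in periportal than in other spots of the NCD section. In the HFD section 591 were higher and 1400 lower, so a lower level alone was common. Gulo, an enzyme of vitamin C synthesis, had log2 ratios of −1.92 and −1.89, and Lect2, a secreted hepatokine, of −2.04 and −1.74.

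Across the periportal spots, the mean of both sections reached 50 CPM for 1991 genes. Of these, 118 (5.93%) were at least 2-fold higher and 66 (3.31%) at least 2-fold lower in the HFD than in the NCD section. The median log2 ratio of HFD over NCD was 0.10 in the periportal and 0.12 in the other spots of the same sections. Genes of the endoplasmic reticulum (ER) chaperones and of the acute phase were among the higher ones, and genes of the major urinary proteins, of male-biased metabolism and of hemoglobin were among the lower ones. To find where the periportal spots stood apart, the log2 ratio in the other spots was subtracted from that in the periportal spots. This difference between the regions was at least 1.5-fold upwards for 22 genes (1.1%) and downwards for 28 genes (1.41%), its median was 0.0034, and its 10th and 90th percentiles were −0.24 and 0.28.

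**Figure D1:**
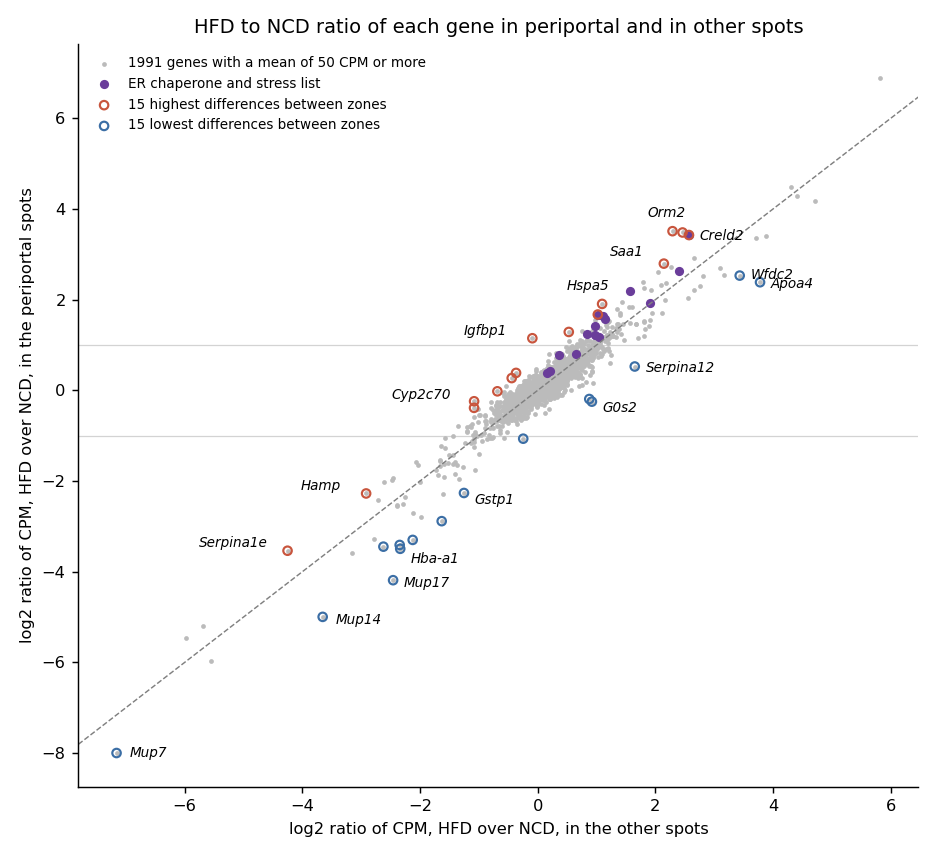
Each point is 1 of the 1991 genes, with its log2 ratio of HFD over NCD in the other spots (x axis) and in the periportal spots (y axis). The dashed line marks equal ratios and the grey lines 2-fold, and the members of the ER list (purple) lie above the dashed line while Apoa4, G0s2 and Serpina12 lie below it.

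The genes that load and fold secretory proteins in the ER were higher in the HFD periportal spots. Hspa5, the ER chaperone BiP, was at 215 CPM (202 to 229) in the NCD and at 974 CPM (961 to 988) in the HFD periportal spots, a log2 ratio of 2.18 (2.09 to 2.27). In the other spots it was at 246 and 730.2 CPM, a log2 ratio of 1.57, so the difference between the regions was 0.61 (0.51 to 0.71). Hspa5 thus had a level that went down from the portal to the central end of the HFD section, from 974 to 593 CPM over 5 equal bins of the score, and one between 215 and 257 CPM along the NCD section.

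Within the chosen spots the same order held. The HFD members with a score below their median had 1003 CPM and those above it 939 CPM, against 211 and 218 CPM in the NCD spots. Single spots had a median of 214 CPM in the NCD section, with 10th and 90th percentiles of 0 and 454 CPM, and of 968 CPM in the HFD section, with 647 and 1311 CPM. These central ranges did not overlap, but the highest NCD spot had 964 CPM. The spread includes the counting error of each spot, which is larger in the shallower NCD spots.

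The genes of the list were read together with their promoters, since BiP and its partners are known to be driven by the ER stress response element, bound by NF-Y and ATF6. This element was searched as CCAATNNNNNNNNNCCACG, that is CCAAT, 9 bases of any kind and CCACG, on both strands of the 250 bases before the start of each gene in the RefSeq promoters of GRCm38.p6. Of the 24 genes of the list, 22 are in that table, and 7 of them (31.8%) held the element, against 35 of 27025 genes (0.130%) in the table. A match describes the letters and is not a measured site. The promoters of 4 genes whose HFD to NCD ratio is described here are shown 5′ to 3′ on the strand of the gene, with CCAAT and CCACG, or their reverse complements, in capitals. They lie at chr2:34771840-34772089 (plus strand) for Hspa5, chr10:86705445-86705694 (minus strand) for Hsp90b1, chr12:17266339-17266588 (plus strand) for Pdia6 and chr15:88819396-88819645 (plus strand) for Creld2.
Hspa5: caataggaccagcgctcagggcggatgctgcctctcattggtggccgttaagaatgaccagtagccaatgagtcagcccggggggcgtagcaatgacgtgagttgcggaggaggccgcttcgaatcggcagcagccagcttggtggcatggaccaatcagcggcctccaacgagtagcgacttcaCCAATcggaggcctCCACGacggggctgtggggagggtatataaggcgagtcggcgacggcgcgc
Hsp90b1: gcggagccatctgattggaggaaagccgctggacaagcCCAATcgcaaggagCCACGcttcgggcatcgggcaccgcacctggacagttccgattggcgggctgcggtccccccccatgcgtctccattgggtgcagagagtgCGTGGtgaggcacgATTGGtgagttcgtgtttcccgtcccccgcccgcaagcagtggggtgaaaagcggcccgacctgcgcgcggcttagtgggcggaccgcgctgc
Pdia6: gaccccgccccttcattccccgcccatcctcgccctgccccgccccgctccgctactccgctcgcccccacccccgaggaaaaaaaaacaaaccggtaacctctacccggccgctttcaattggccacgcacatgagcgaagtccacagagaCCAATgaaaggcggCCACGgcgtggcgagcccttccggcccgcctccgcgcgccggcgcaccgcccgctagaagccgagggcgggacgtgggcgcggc
Creld2: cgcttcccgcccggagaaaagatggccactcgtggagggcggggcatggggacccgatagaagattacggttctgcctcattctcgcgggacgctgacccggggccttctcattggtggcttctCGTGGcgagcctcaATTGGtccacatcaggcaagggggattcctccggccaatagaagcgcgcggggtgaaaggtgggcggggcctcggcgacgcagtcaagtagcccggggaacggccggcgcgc
Hsp90b1 has the element 2 times, once on each strand, and Creld2 has it on the opposite strand. Calr, Canx and Dnajc3 are the other 3 genes of the list with a match. A match and a higher ratio did not go together throughout the list. Canx and Dnajc3 have a match and stayed under 2-fold, while Herpud1, Pdia4, Pdia3, Dnajb9 and Dnajb11 were at least 2-fold higher and have none.

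Of the 24 genes of the ER list, 15 reached a mean of 50 CPM. Pdia4, Dnajb9, Dnajb11, Creld2 and Manf were below 50 CPM in the NCD section and reached the mean through their HFD level, so that they had to differ, and the counts over the 15 serve as a description only. Of these 15, 11 were at least 2-fold higher and 0 at least 2-fold lower in the HFD periportal spots, against 5.93% and 3.31% of all genes, and their median log2 ratio was 1.42 in the periportal and 1.02 in the other spots, against 0.10 and 0.12 over all genes. The ratio was higher in the periportal than in the other spots for 15 of 15, by a median of 0.40, where 50.8% of all genes had a higher ratio there. Beside Hspa5 stood Hsp90b1, the ER form of HSP90, at 219.8 and 651 CPM (log2 ratio 1.57, 1.47 to 1.66), with 1.15 in the other spots. The protein disulfide isomerases, which form and reshuffle disulfide bonds, had log2 ratios of 1.67 (Pdia4, 30.9 and 98.4 CPM), 1.64 (Pdia6, 74.7 and 232 CPM) and 1.23 (Pdia3, 134 and 314 CPM). The difference between the regions was 0.65 (0.38 to 0.93) for Pdia4 and 0.54 (0.36 to 0.72) for Pdia6. Of the lectin chaperones that hold glycoproteins, Calr was at 246 and 569.8 CPM (log2 ratio 1.21), whereas Canx was at 180.4 and 235 CPM (0.38, 0.28 to 0.49) and stayed under 2-fold.

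The co-chaperones and stress proteins of the ER varied more in how far the regions differed. Creld2, a secreted protein induced by ER stress, rested on few molecules in the NCD section, with 50 UMIs (11.2 CPM) against 2403 (120.1 CPM). Its log2 ratio was 3.42 (3.02 to 3.86) in the periportal and 2.57 in the other spots, a difference of 0.85 with a wide interval of 0.41 to 1.32. Manf, another secreted protein of the ER stress response, was at 47.4 and 295 CPM (2.64, with 2.40 in the other spots). Herpud1, which takes part in the removal of misfolded proteins, was at 261 and 997 CPM, and its log2 ratios of 1.93 and 1.90 differed between the regions by 0.029 (−0.066 to 0.13). The J-domain partners of BiP had log2 ratios of 1.42 (Dnajb9), 1.18 (Dnajb11) and 0.77 (Dnajc3). Among the transcription factors of the response, log2 ratios under 1 were found for 2, with 67.4 and 117 CPM for Xbp1 (0.80, 0.62 to 0.97) and 50.6 and 67.8 CPM for Atf4 (0.42, 0.22 to 0.63). Among the 9 members below a mean of 50 CPM, Sdf2l1, a BiP-associated factor, was at 5.15 and 46.7 CPM, and Ddit3, the stress transcription factor CHOP, at 8.73 and 39.6 CPM (log2 ratio 2.18, 1.72 to 2.69). Gdf15, a hormone released under cell stress, was at 3.13 and 58.4 CPM, and its log2 ratio was 4.22 in the periportal against 4.60 in the other spots.

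The acute phase list showed 10 genes at least 2-fold higher and 0 at least 2-fold lower among the 19 of its 24 members with a mean of 50 CPM, against 5.93% and 3.31% of all genes. Of the 10, Saa2, Lcn2, Orm2 and Steap4 were below 50 CPM in the NCD section and reached the mean through their HFD level, so the count is a description only. The median log2 ratio was 1.01 in the periportal and 0.96 in the other spots. The difference between the regions had a median of 0.23 and was above 0 for 16 of the 19, against 50.8% of all genes. Saa1, serum amyloid A, was at 93.99 CPM (85.2 to 103) in the NCD and 652 CPM (641 to 663) in the HFD periportal spots, a log2 ratio of 2.79 (2.65 to 2.94) against 2.14 in the other spots. Its near-identical neighbour Saa2 was at 27.1 and 302 CPM (3.48, with 2.46 elsewhere), and the split of reads between the pair is uncertain. Orm2, an orosomucoid, was at 8.95 and 102 CPM, with a difference between the regions of 1.22 (0.75 to 1.73). Its neighbour Orm1, at 995 and 1037 CPM, had a log2 ratio of 0.059 (0.012 to 0.11). The serum amyloids were higher in periportal than in other spots of the HFD section, where Saa1 went from 652 CPM in the first to 377 CPM in the last of the 5 bins. Orm2 was not, at 102 CPM in the periportal and 105 CPM in the other HFD spots, and its difference between the regions went with a lower periportal level in the NCD section (8.95 against 21.5 CPM). The differences depended on how the spots were chosen. With a score made of other zonal genes, none of them in the score used here, the difference between the regions was 0.056 for Saa1, 0.48 for Saa2 and 0.62 for Orm2, against 0.65, 1.02 and 1.22 here.

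Other acute phase genes were higher in the HFD section by similar ratios in both regions. Lcn2, which binds bacterial siderophores, was at 10.7 and 208 CPM, and its log2 ratio was 4.28 (3.87 to 4.72) in the periportal and 4.41 in the other spots. Hp, haptoglobin, which binds free hemoglobin, was at 2125 and 5877 CPM (1.47 and 1.35), and Hpx, hemopexin, which binds heme, was at 3513 and 7082 CPM (1.01 and 0.96). Steap4, a metalloreductase, was at 33.6 and 169 CPM (2.33). The fibrinogen chains did not share this direction. Fgb was at 3105 and 2190.4 CPM, a log2 ratio of −0.50 (−0.53 to −0.48), and Fga and Fgg had log2 ratios of −0.044 and −0.010. Crp, C-reactive protein, which moves little in mice, had a log2 ratio of 0.29 (0.20 to 0.38).

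**Figure D2:**
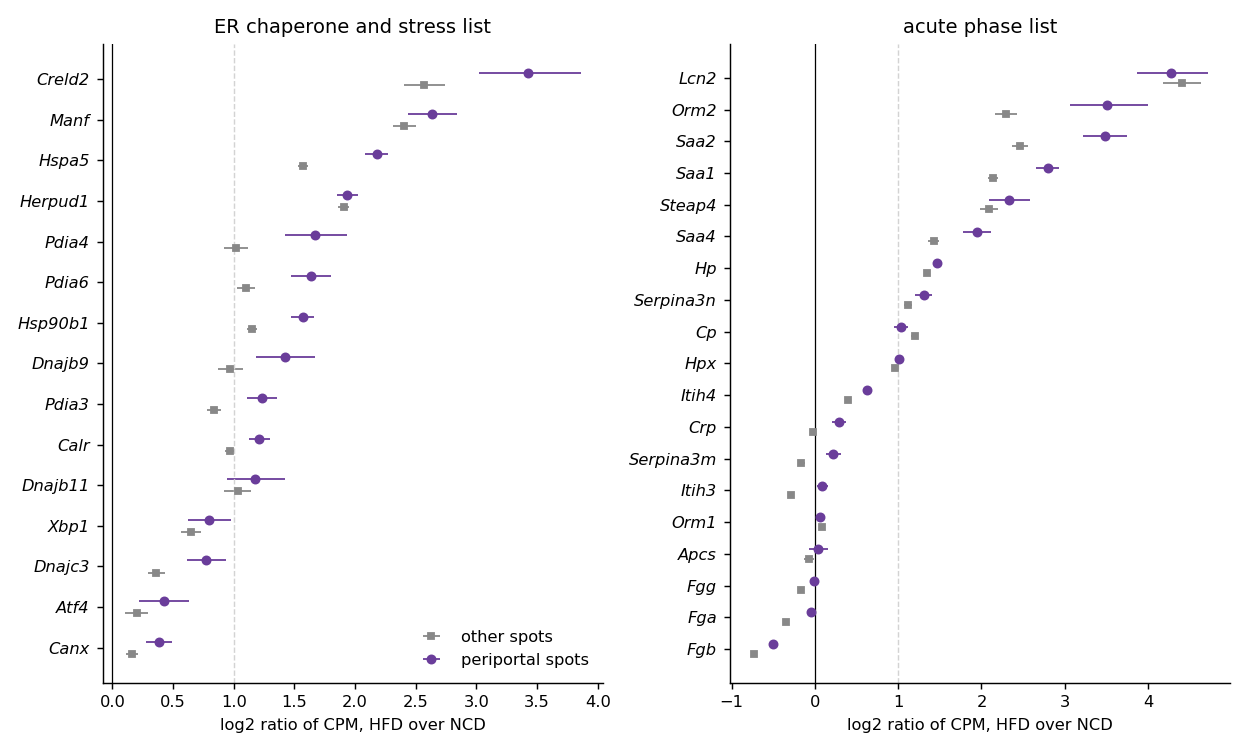
The log2 ratio of HFD over NCD for each gene counted of the ER list (left, 15 genes) and the acute phase list (right, 19 genes), in periportal (purple circles) and other spots (grey squares), with bars for 95% intervals of counting error. In the ER panel every circle lies to the right of its square, and in the acute phase panel those of Lcn2, Cp and Orm1 do not.

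Some of the highest ratios belonged to metabolic genes. Cyp2b9, a cytochrome P450 known as female-predominant in mouse liver, had 4 UMIs (0.895 CPM) in the NCD and 2128 UMIs (106 CPM) in the HFD periportal spots, a log2 ratio of 6.89 (5.53 to 8.77) with a wide interval. The 23 genes of the female-biased list, Cyp2b9 among them, went the other way when summed. They stood at 1902 CPM in the NCD and 915 CPM in the HFD periportal spots (−1.06, against −0.92 in the other spots). Most of the NCD sum was 1 gene, Cyp4a14 (log2 ratio −1.91), whose levels are given below with the PPAR alpha targets. The lower sum is that of Cyp4a14, since the other members together were higher in the HFD periportal spots. Of the 3 with a mean of 50 CPM, 2 were at least 2-fold higher and 1 lower, against 5.93% and 3.31% of all genes. Cyp2b9 reached this mean through its HFD level. Lpin1, a phosphatidate phosphatase and coactivator, was at 16.6 and 176 CPM (3.41 and 3.88), and Thrsp, a regulator of lipogenesis, at 44.3 and 253 CPM (2.52 and 2.80). Thus the genes with the highest ratios in periportal spots were mostly high in the other spots too. Car3, a carbonic anhydrase, was at 302 and 1838 CPM, and its log2 ratio of 2.60 exceeded that of the other spots by 0.56 (0.47 to 0.64). Cd36, a fatty acid translocase, was at 34.9 and 183 CPM and exceeded it by 0.60 (0.36 to 0.85). Among the remaining genes with the highest ratios were Ly6d, a surface protein (4.18), Rgs16, a regulator of G protein signalling (3.36), the heat shock protein gene Hspa1b (2.72) and the galectin gene Lgals1 (2.69).

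Transcripts of cells of the portal tract and of blood also differed between the sections, and in spots more cells of a type and more RNA per cell cannot be told apart. Summed over its 14 genes, the fibroblast list stood at 90.4 CPM in the NCD and 324 CPM in the HFD periportal spots, a log2 ratio of 1.84 (1.70 to 1.99) against 1.67 in the other spots. Its only member with a mean of 50 CPM, reached through the HFD level, was Col3a1, a fibrillar collagen, at 13.4 and 101 CPM (2.91, 2.54 to 3.30). Pi16 had 0 UMIs in the NCD spots, which allows up to 0.825 CPM. The 9 smooth muscle genes summed to 56.6 and 172 CPM. The 14 bile duct genes summed to 488 and 1188 CPM, of which Krt8 (132 and 433 CPM) and Spp1 (115 and 376 CPM), both also made by other cells, gave the larger share, while the defining Krt19 was at 2.46 and 5.30 CPM and Krt7 at 1.12 and 2.95 CPM. The 12 Kupffer cell genes summed to 372 and 443 CPM, a log2 ratio of 0.25 (0.18 to 0.33) in the periportal against 0.59 in the other spots. Leaving out the 10% of spots richest in bile duct, fibroblast, smooth muscle and portal vessel transcripts gave 112 genes at least 2-fold higher and 65 lower, of which 105 and 63 were among those above.

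Genes at least 2-fold lower in the HFD periportal spots were led by the major urinary proteins, pheromone carriers made by the male mouse liver. Mup7 was at 971 CPM in the NCD and 3.80 CPM in the HFD spots, a log2 ratio of −7.998 (−8.35 to −7.67) against −7.16 in the other spots. Mup14 was at 316 and 9.90 CPM (−5.00 and −3.65) and Mup17 at 266 and 14.6 CPM (−4.19 and −2.46). Mup3 was at 13998 and 5179 CPM (−1.43). Mup20 went the other way, with 13180.0 and 14629 CPM, a log2 ratio of 0.15 (0.14 to 0.16) in the periportal and 0.93 in the other spots. The Mup genes are near-identical copies, so how reads were shared among them is uncertain.

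Of 19 male-biased liver genes, 9 reached a mean of 50 CPM, and 6 of these were at least 2-fold lower and 0 at least 2-fold higher, with a median log2 ratio of −1.43 in the periportal and −1.50 in the other spots. The share over all genes was 3.31% lower and 5.93% higher. Cyp4a12a and Cyp7b1, below 50 CPM in the HFD section, reached the mean through their NCD level, so this count too is a description only. Serpina1e, an alpha-1-antitrypsin copy, was at 2866 and 247 CPM (−3.54), Cyp4a12a, a fatty acid hydroxylase, at 98.2 and 14.1 CPM (−2.80), and Cyp7b1, an oxysterol hydroxylase, at 119 and 21.1 CPM (−2.50). Slco1a1, an organic anion transporter, had 363 UMIs (81.2 CPM) in the NCD and 0 UMIs in the HFD periportal spots, which by the exact interval allows up to 0.184 CPM, and its mean was below 50 CPM. Also low were 2 members of the Cyp2c family of cytochromes with similar sequences, Cyp2c54 at 129 and 2.05 CPM (−5.97) and Cyp2c50 at 343 and 52.8 CPM (−2.70). Subtracting the mean UMIs of the spots off tissue of the same slide turned the direction of Cyp2c54, Cyp2c50, Mup9 and Mup11. In this setting negative values were set to 0 and sums under 3 counted as 3. The turned ratios can therefore rest on NCD levels near 0, and they do not decide how far the lower level depended on that background.

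Hemoglobin transcripts of red blood cells were lower in the HFD section in both regions. The 5 genes of the red blood cell list summed to 6150.6 CPM in the NCD and 645 CPM in the HFD periportal spots, and to 6862 and 1527 CPM in the other spots. Hbb-bs, a beta globin, was at 2914 and 296 CPM (log2 ratio −3.30, against −2.12 in the other spots) and Hba-a1, an alpha globin, at 1609.7 and 143 CPM (−3.49 and −2.34). The globin copies are near-identical, and the 10% of periportal spots richest in it held 65.1% of the Hbb-bs UMIs in the NCD and 59.9% in the HFD section. The difference between the regions, from −1.06 to −1.25 for the 4 globin genes, was not seen in spots of 5000 to 20000 UMIs, a limit chosen after seeing the data. This limit brought the depths closer but not level, with means of 9604 UMIs in NCD periportal, 10806 in other NCD, 14044 in HFD periportal and 12995 in other HFD spots. The difference was −0.094 for Hbb-bs and 0.030 for Hba-a1, while both stayed lower in the HFD section, with log2 ratios in periportal spots of −1.89 and −1.90.

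Among the genes whose ratio was higher in the periportal than in the other spots, Igfbp1, a secreted binder of insulin-like growth factors, differed most. It lies at chr11:7197782-7202546 (GRCm38, plus strand). Igfbp1 was at 84.6 CPM (76.3 to 93.6) in the NCD and 188 CPM (182 to 194) in the HFD periportal spots, a log2 ratio of 1.15 (1.00 to 1.305). In the other spots it was at 149 and 139.6 CPM, a log2 ratio of −0.092 (−0.15 to −0.032), so that the regions differed by 1.24 (1.08 to 1.41). Along the score its level went up from 84.6 to 169 CPM in the NCD section and down from 188 to 121 CPM in the HFD section. The opposite slopes crossed in the middle bin, at 152 and 151 CPM. With the score made of other zonal genes the difference was 0.71.

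Several enzymes that are pericentral in the chow section were less so in the HFD section. Aldh1a1, a retinaldehyde dehydrogenase, was at 618 and 1507 CPM in the periportal spots (1.29, 1.23 to 1.34), against 0.53 in the other spots. Aldh3a2, a fatty aldehyde dehydrogenase, was at 74.7 and 280.0 CPM (1.91 and 1.09). Akr1c6, a 17-beta-hydroxysteroid dehydrogenase, was at 580.5 and 757 CPM and had opposite signs in the regions, 0.38 (0.32 to 0.44) and −0.37 (−0.39 to −0.35). Slco1b2, a bile acid and drug uptake carrier, was at 305 and 532 CPM (0.80 and 0.19). Of the 9 further pericentral genes with a mean of 50 CPM, 7 had a higher ratio in the periportal than in the other spots, against 50.8% of all genes. For 3 of the 9 it was at least 1.5-fold higher, against 1.1% of all genes. Such transcripts also lay off tissue on the NCD slide, and subtracting their mean UMIs moved the median log2 ratio of these pericentral genes in periportal spots from 0.088 to 5.73, a size that rests on NCD levels near 0. The other genes among the 15 with the highest difference between the regions included Cyp2c70, a bile acid hydroxylase (0.84), Ces1b, a carboxylesterase (0.70), and Cyp2c68 (0.66). Hamp, hepcidin, the hormone that limits iron export, was at 3652 and 755 CPM, lower in the HFD section by less in the periportal (−2.27) than in the other spots (−2.92). Its copy Hamp2 was at 65.3 and 232 CPM (1.83), and the split between the copies is uncertain.

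Outside the Mup and globin copies, the genes with the lowest ratio in periportal relative to other spots were Apoa4, G0s2, Serpina12, Ccdc152, Gstp1, Wfdc2 and Malat1. Apoa4, an apolipoprotein of triglyceride-rich particles, lies at chr9:46240696-46243459 (GRCm38, plus strand). It was at 695 CPM (671 to 719.9) in the NCD and 3626 CPM (3599.9 to 3653) in the HFD periportal spots, a log2 ratio of 2.38 (2.33 to 2.44) against 3.78 in the other spots, so that the regions differed by −1.39 (−1.46 to −1.33). Along the score Apoa4 went down from 695 to 185 CPM in the NCD section and up from 3626 to 4575 CPM in the HFD section. G0s2, an inhibitor of the main triglyceride lipase, was at 227 and 191 CPM in the periportal spots (−0.25, −0.35 to −0.15) but had a log2 ratio of 0.92 (0.87 to 0.97) in the other spots. It went from 191 to 458 CPM over the bins of the HFD section and from 227 to 165 CPM over those of the NCD section. With the score made of other zonal genes, the difference between the regions was −1.11 for Apoa4 and −0.96 for G0s2. Both genes had their lowest HFD level, among the 5 bins, in the periportal one.

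Serpina12, the adipokine vaspin, kept its periportal position in both sections, at 144 and 23.9 CPM in the first and last bin of the NCD section and 207 and 101 CPM in those of the HFD section. Its log2 ratio was 0.53 (0.40 to 0.65) in the periportal and 1.65 in the other spots. Gstp1, a glutathione transferase, was at 472 and 98.3 CPM in the periportal spots (−2.26, −2.35 to −2.17, against −1.25), and its portal enrichment in the NCD section, from 472 to 223 CPM, was not found in the HFD section, at 98.3 and 89.3 CPM. Scd1, the desaturase that makes monounsaturated fatty acids, was at 6205 and 4662 CPM, with a log2 ratio of −0.41 (−0.43 to −0.39) in the periportal and 0.20 (0.19 to 0.21) in the other spots. Wfdc2, a secreted protein of the whey acidic family, was at 15.9 and 91.8 CPM (2.53 and 3.43). Malat1, a nuclear non-coding RNA, was at 102 and 48.9 CPM (−1.07 and −0.25), and its difference between the regions was −0.82 over all spots and −0.48 among spots of 5000 to 20000 UMIs.

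**Figure D3:**
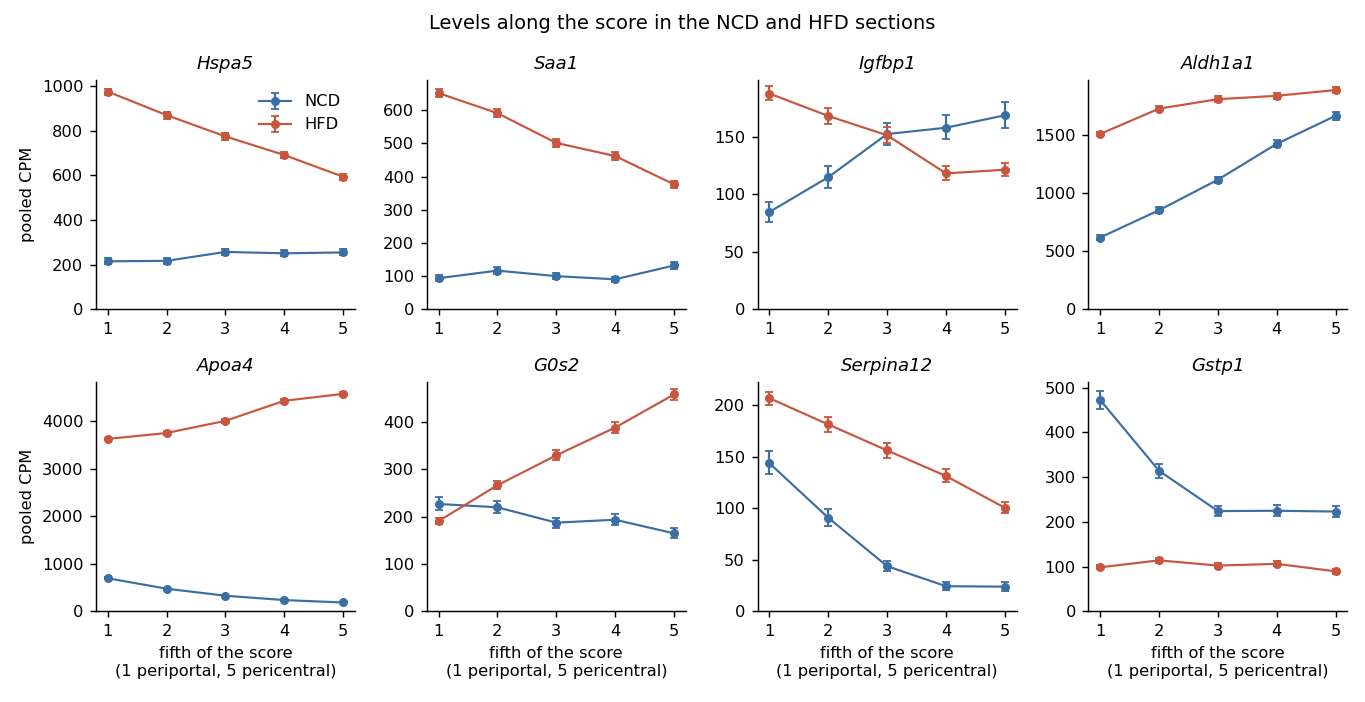
Pooled CPM of 8 genes (y axis) in 5 equal bins of the zonation score (x axis, 1 the periportal spots, 5 the pericentral ones) of the NCD (blue) and HFD (red) sections, with 95% intervals of counting error. Hspa5 and Saa1 go down towards the pericentral bin in the HFD section and not in the NCD section, the lines of Igfbp1 cross, and Apoa4 and G0s2 go up towards that bin in the HFD section.

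The genes of the classical tasks of the periportal hepatocyte had ratios closer to 1 than the groups above. For the urea cycle and its ammonia supply, 8 of the 10 genes outside the score reached a mean of 50 CPM, with a median log2 ratio of −0.21 in the periportal and −0.34 in the other spots. Of these 8, 0 were at least 2-fold higher and 1 at least 2-fold lower, against 5.93% and 3.31% of all genes. Asl, argininosuccinate lyase, was at 1034 and 465 CPM (−1.15, −1.20 to −1.10), and Ass1, argininosuccinate synthase, at 2757 and 1542 CPM (−0.84, −0.87 to −0.81). Cps1, which commits ammonia to the cycle, was at 1902 and 1269 CPM (−0.58, against −1.08 in the other spots). Otc, ornithine transcarbamylase, had a log2 ratio of 0.035 (−0.034 to 0.10) and Glud1, glutamate dehydrogenase, of 0.60 (0.53 to 0.67). Asl and Ass1, enzymes of the middle of the cycle, thus had the lowest ratios among those named, but Cps1, at its entry, was lower too.

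In gluconeogenesis, 11 of 14 genes reached that mean, with a median log2 ratio of 0.18 in the periportal and 0.36 in the other spots. Pck1, the cytosolic carboxykinase that commits carbon to glucose, was at 2265 and 2212 CPM (−0.034, −0.066 to −0.0031), and Fbp1, fructose bisphosphatase, at 1694 and 1667 CPM (−0.023, −0.059 to 0.013). G6pc, which releases free glucose, was at 271 and 378 CPM (0.48, 0.39 to 0.57). Only Lpin1 was 2-fold higher in this list, and it reached the mean through its HFD level. Of 35 genes of amino acid breakdown, 28 reached the mean, with a median of −0.10. Of these 28, 0 were at least 2-fold higher and 2 at least 2-fold lower, against 5.93% and 3.31% of all genes. These 2 were Gnmt, glycine N-methyltransferase (3826 and 1589 CPM, −1.27), and Got1, the cytosolic aspartate aminotransferase (376 and 186 CPM, −1.01).

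In lipid metabolism, the 24 genes of fatty acid oxidation and ketogenesis all reached the mean, none was 2-fold higher or lower, and the median log2 ratio was 0.063 in the periportal and 0.088 in the other spots. Of 22 targets of PPAR alpha, the fatty acid sensor, 13 reached it, 2 were at least 2-fold higher and 3 lower, and the median was −0.033 against 0.44 in the other spots. Over all genes, 5.93% were at least 2-fold higher and 3.31% at least 2-fold lower. Cyp4a14, a fatty acid hydroxylase, was at 1724 and 458 CPM (−1.91, −1.96 to −1.87) and Cyp4a10 at 992 and 331 CPM (−1.58, −1.64 to −1.53). In the lipid droplet list, 11 of 24 genes reached the mean, 3 were at least 2-fold higher and 0 lower, and the median was 0.76 against 0.92 in the other spots. Of these 3, Cd36 and Fitm1 were below 50 CPM in the NCD section and reached the mean through their HFD level, so the count is a description only. Plin2, the main droplet coat protein of hepatocytes, was at 359.6 and 576 CPM (0.68, against 0.92), and Hsd17b13, a droplet-bound dehydrogenase, at 550.0 and 1232 CPM (1.16, against 1.71). For lipogenesis, 12 of 20 genes reached the mean with a median of 0.13 in the periportal and 0.44 in the other spots, and Fasn, fatty acid synthase, was at 47.2 and 129 CPM (1.45, 1.25 to 1.66). The lipid droplet, lipogenic and PPAR alpha lists thus each had a lower median in the periportal spots than elsewhere.

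The mitochondrially encoded subunits of the respiratory chain were lower in the HFD section, with a median log2 ratio of −0.81 in the periportal and −0.75 in the other spots over 12 of 13 genes. Of these 12, 4 were at least 2-fold lower, against 3.31% of all genes. The gene mt-Nd4l was at 293 and 75.9 CPM (−1.95). The 26 nuclear-encoded subunits had a median of −0.12, and none was 2-fold higher or lower. In iron handling, 5 of the 12 genes with a mean of 50 CPM were at least 2-fold higher and 1, Hamp, at least 2-fold lower. The shares of all genes were 5.93% and 3.31%. The median of the list was 0.78 in both regions, and Ftl1, a ferritin subunit, was at 4938 and 9097 CPM (0.88). Of 32 further plasma proteins, all of which reached the mean, 1 was at least 2-fold higher and 1 lower, against 5.93% and 3.31% of all genes. Their median was −0.14 against −0.26 in the other spots.

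**Figure D4:**
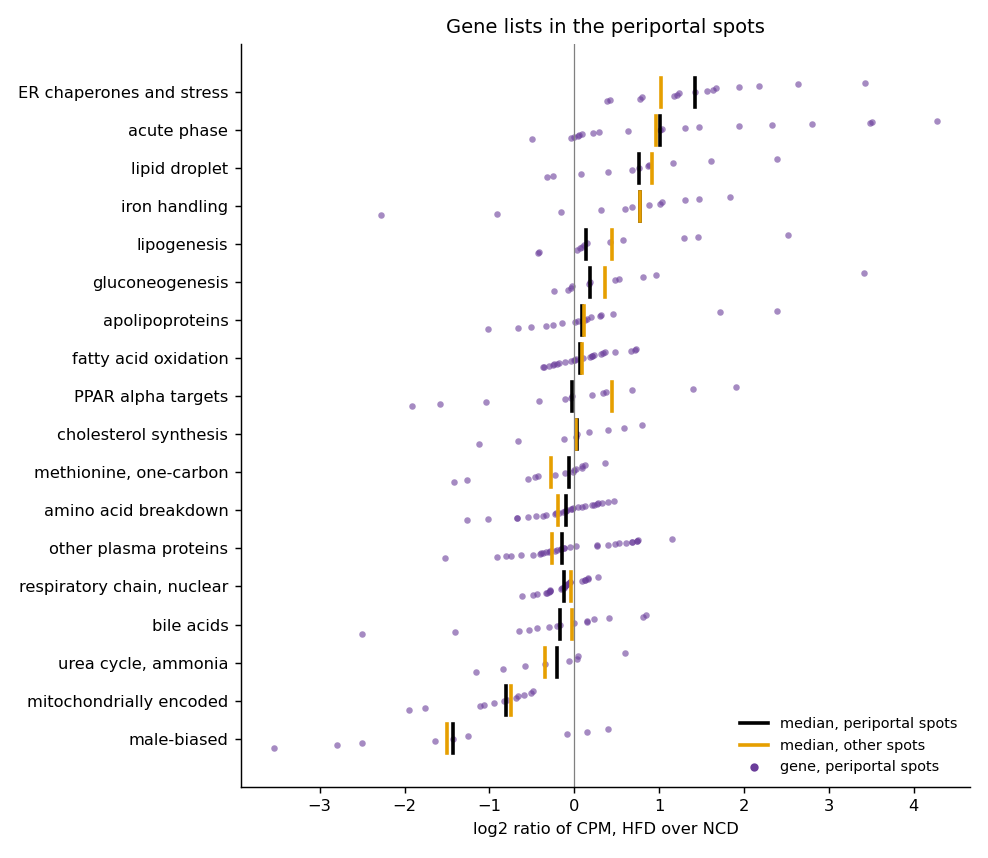
The log2 ratio of HFD over NCD in periportal spots for each gene counted (points) of 18 lists, with the median of the list in periportal (black) and other spots (orange). The ER chaperones have the highest median and the male-biased genes the lowest, and the median of the PPAR alpha list lies at −0.033 in periportal and 0.44 in other spots.

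Since median depth was higher in periportal than in other spots of the HFD section and lower in those of the NCD section, the differences between the regions were also taken from spots of 5000 to 20000 UMIs alone, which left 256 NCD and 371 HFD periportal spots. Igfbp1 (1.09), Aldh1a1 (0.86), Akr1c6 (0.90) and Hamp (0.97) kept a higher ratio in the periportal spots, and Apoa4 (−1.45), G0s2 (−0.96), Serpina12 (−1.41) and Gstp1 (−0.996) a lower one. Hspa5 had a difference of 0.60 and Saa1 of 0.57 in these spots. For Serpina1e the difference was 0.71 over all spots and 0.037 in these, so that, like those of the globins, it was not seen within this limit. Subtracting the mean UMIs of the spots off tissue made several differences larger, with 2.50 for Igfbp1, 2.99 for Aldh1a1, 1.02 for Saa1, −2.34 for Apoa4, −1.45 for G0s2 and −2.27 for Serpina12, and turned that of Serpina1e to −0.19.

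**Figure D5:**
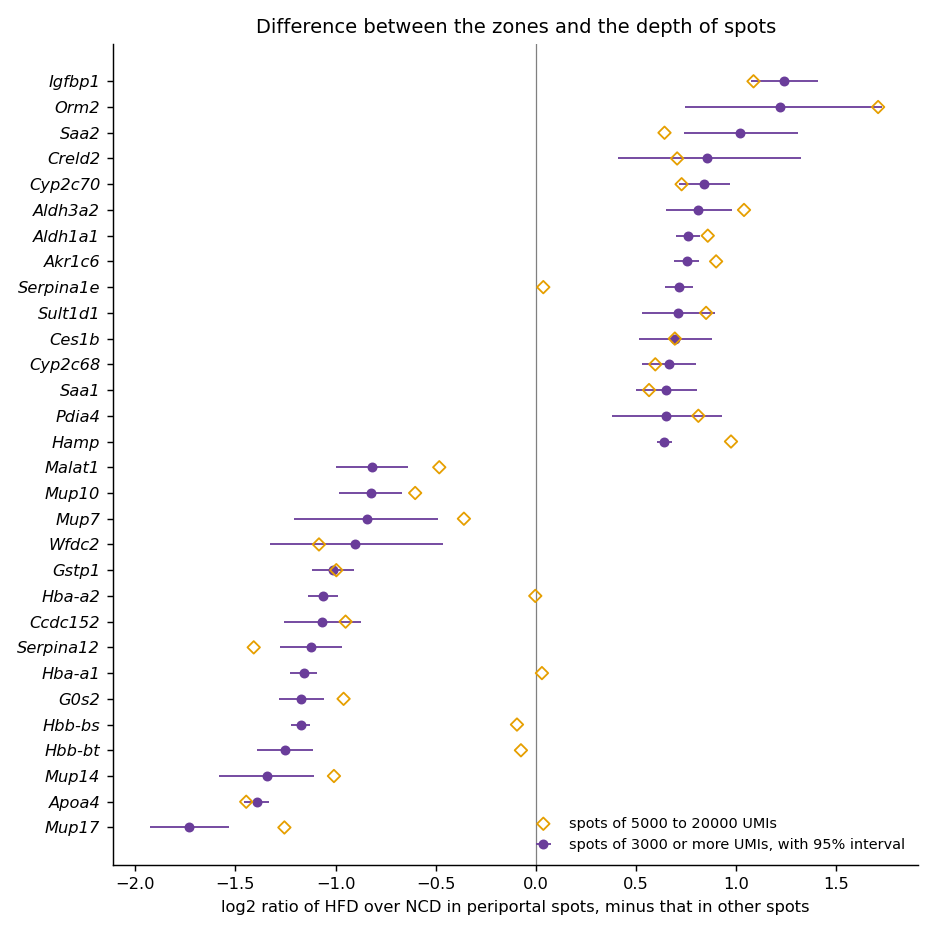
The log2 ratio of HFD over NCD in periportal spots minus that in the other spots for the genes with the 15 highest and 15 lowest values, over all spots of at least 3000 UMIs (purple, with 95% intervals of counting error) and over spots of 5000 to 20000 UMIs (orange diamonds). The diamonds of Serpina1e and the 4 globin genes lie near 0, and the others keep the side of 0 of their circle.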

How the data were processed

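The deposited tables hold UMI counts per gene and spot. The authors made the counts and the tissue call with Space Ranger 1.3.1, per the file headers, and with mm10, per the labels' processing notes. The annotation is not given in the sources used here. Counts were not normalized by the authors. Of 32285 gene identifiers, 32235 were found in GENCODE M21 on GRCm38, and 38 symbols with several identifiers were summed. The UMIs of each gene were summed over the chosen spots and divided by all their UMIs (CPM). Levels have exact Poisson intervals, ratios exact conditional binomial intervals and differences between regions exact conditional odds ratio intervals, all at the 95% level. Coverage of these intervals was checked only on simulated Poisson counts, the model they assume, so clumping of transcripts among spots was not covered. With 1 section per diet no test, no p-value and no standard error was computed, and "higher" or "lower" means past the fold stated. Against a section with 0 UMIs in the deposited counts no ratio was given. In ratios, sums under 3 UMIs counted as 3. This also held after the UMIs off tissue were subtracted, where negative values were set to 0. Total depth per region is given with the results.

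The genes named were the 15 with the highest and lowest ratio and the 15 with the highest and lowest difference between the regions among genes with a mean of 50 CPM, the 8 score genes, and members of 42 gene lists; other genes named from the calls were chosen after their values were seen. The members and lists were chosen with earlier results of these data known. In all, 15 other settings were tried (the depth and share of spots, the score genes, the total, the scaling, the minimum mean, portal tract spots and RNA off tissue), and 2 more were chosen after seeing the data, the use of spots on and off tissue and the limit of 5000 to 20000 UMIs. Thinning used seed 1. The tools were scipy 1.17.1, numpy 2.4.6, pandas 2.3.3 and matplotlib 3.10.9 in Python 3.11.15. Spot positions, images and single-cell data were not analysed here.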

Additional observations from a re-analysis of the deposited data

Results flagged for a closer look

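For 8 genes the HFD to NCD ratio went in opposite directions in the periportal and other spots, each beyond its counting interval. These 8 are outside the score, and their ratios differed between the regions by at least 1.5-fold. How many of the 1991 genes did so by a smaller difference is not given here. The score gene Cyp2f2 is one, with −0.087 (−0.13 to −0.042) in periportal and 0.26 (0.22 to 0.29) in other spots. The difference was not tested, since each diet is 1 section, and the values given are log2 ratios in periportal spots, in the other spots and their difference. Igfbp1, a binder of insulin-like growth factors, was higher in the HFD section in periportal spots (1.15) and lower elsewhere (−0.092), a difference of 1.24. The same direction was found for the steroid dehydrogenase gene Akr1c6 (0.38 and −0.37, difference 0.75), the sulfotransferase gene Sult1d1 (0.27 and −0.44, difference 0.71) and the ribonuclease gene Rnase4 (0.089 and −0.55, difference 0.64). The opposite direction was found for G0s2, an inhibitor of triglyceride lipase (−0.25 and 0.92, difference −1.17), and for Ccdc152 (−0.19 and 0.88, difference −1.07). It was also found for Cycs, cytochrome c (−0.49 and 0.12, difference −0.62), and for the desaturase gene Scd1 (−0.41 and 0.20, difference −0.61).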

How the results depend on the processing

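The counts of 118 higher and 66 lower genes, and of 22 and 28 genes with a higher and a lower ratio in periportal than in other spots, stayed within 1.5 times under 11 of 17 other settings, 2 of them added after seeing the data. The other 6 follow. With every spot thinned to 3000 UMIs, 51 genes had a higher ratio in periportal spots and 42 a lower one. With a score from other zonal genes, 10 had a higher ratio. With the mean UMIs of the spots off tissue subtracted, 203 genes were higher in the HFD section, and the ratio was higher in periportal spots for 212 and lower for 80. With a minimum mean of 20 CPM, more genes were counted and 254 were higher, with 39 and 45 differing between regions. With 200 CPM fewer were counted, and 28 were higher and 26 lower, with 8 and 12 differing between regions. In spots of 5000 to 20000 UMIs, 48 had a higher ratio in periportal spots, 19 of them among the 22. The subtraction turned the log2 ratio of Cyp2c54 to 0.49, of Mup9 to 1.18, of Mup11 to 2.10 and of Cyp2c50 to 5.11, and the difference between regions of Serpina1e to −0.19, and the depth limit turned that of Hba-a1 to 0.030. The turned ratios of these Cyp2c and Mup genes can rest on NCD levels near 0, where sums under 3 counted as 3. The cause was not tested. No paired analysis was possible because the 2 sections came from different mice. NCD depth limits genes with few UMIs, such as Cyp2b9 with 4.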
